A study of Rattus norvegicus with 12 samples.

Results

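The comparison examined here set testis gene expression in male Sprague-Dawley rats fed a soy protein diet against that in rats fed a casein diet, with no estradiol in either group. It used 6 of the 12 arrays of the series, the 3 labelled soy and the 3 labelled caseine, and the 31042 of 31099 probe sets on the array that are not Affymetrix controls. All pups were nursed on casein AIN-93G diets and were assigned to their diet on postnatal day 21. The casein group stayed on casein AIN-93G, and in the soy group SPI, given here as soy protein, took the place of casein until postnatal day 33. Testes were collected and frozen on postnatal day 34, and each array was hybridised with biotin-labelled RNA made from 8 µg of total RNA of whole testis. In the other 6 arrays the same diets were combined with estradiol, delivered by a subcutaneous infusion of 10 µg per kg each day, and these arrays were used for the shared estimate of the spread and as a second set of samples for the same diet difference. Whether each array held RNA of a separate rat was not given in the sources used here, so that p-values measured the spread between these samples only, which may be technical.

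Soy protein carries isoflavones, plant compounds that bind the estrogen receptors, and the series was titled for a comparison of soy feeding with selective modulators of those receptors. The prepubertal testis holds Leydig cells, which make androgen, Sertoli cells, which nurse the germ cells, and germ cells that are passing through meiosis for the first time. An Affymetrix gene is often read by several probe sets, each a group of short probes placed mainly toward the 3′ end of the transcript, and probe sets of 1 gene are different readings of the same RNA rather than replicates. Genes read alike by several of their probe sets were therefore described first.

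The array measures differed between the diets before any gene was considered. The mean log2 intensity of the 18 spiked hybridisation controls, bacterial and phage transcripts added to every sample in fixed amounts, was 10.26, 10.29 and 10.18 in the casein arrays and 10.65, 10.65 and 10.73 in the soy arrays. All 18 controls were higher in every soy array than in every casein array, and the mean difference was 0.43 (exact permutation test, two-sided, p = 0.1, the smallest that 3 arrays against 3 can give). The 3′ minus 5′ difference of the hexokinase control was 0.49 ± 0.06 in casein and 0.17 ± 0.02 in soy (SD, n = 3; exact p = 0.1), whereas those of Gapdh (-0.37 and -0.32) and beta-actin (1.62 and 1.52) overlapped between the diets (exact p = 0.2 for both). Because the level of the spiked controls separated the casein from the soy arrays completely, it and the diet cannot be told apart in these 6 arrays. Before quantile normalization the spread of intensities also separated the diets. The lower quartile was 5.30 to 5.32 log2 in the casein arrays and 5.41 to 5.47 in the soy arrays. The upper quartile was 8.49 to 8.51 on casein and 8.33 to 8.39 on soy. In the estradiol arrays the quartiles lay between those of the 2 diets, at 5.37 to 5.38 and 8.45 to 8.48, except that the upper one was below all casein arrays. Arrays of 1 diet correlated at 0.994 to 0.997 over all probe sets and arrays of different diets at 0.987 to 0.991.

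**Figure D1:**
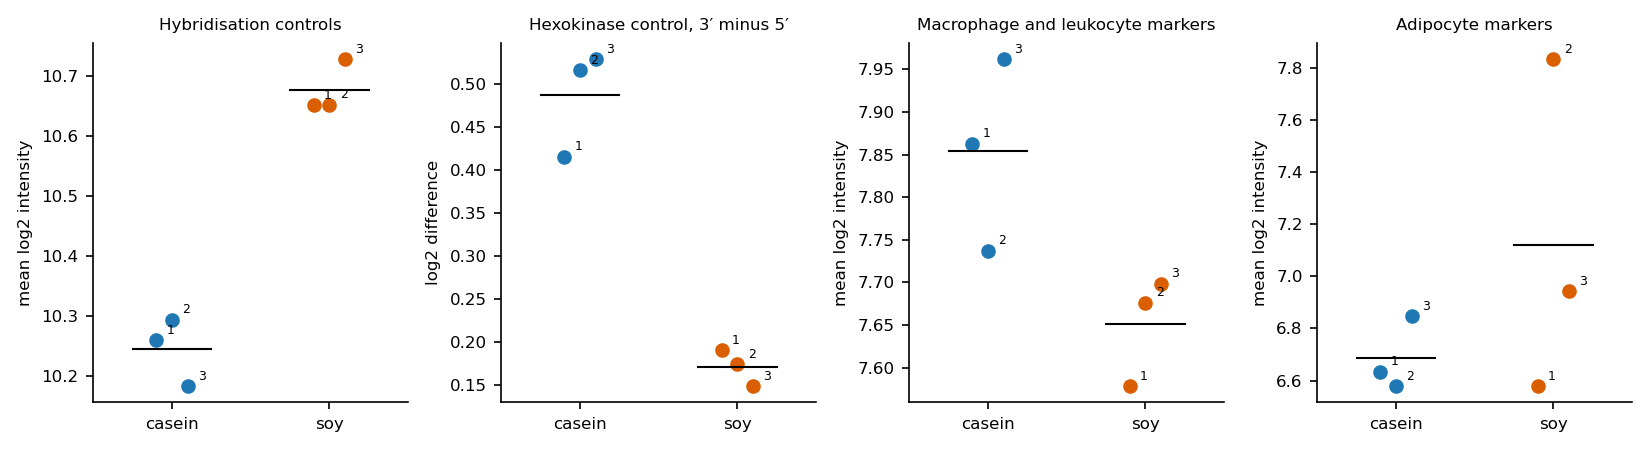
Values of the 3 casein and 3 soy arrays, with the replicate number beside each point and the group mean as a line, for the mean log2 intensity of 18 spiked hybridisation controls, the 3′ minus 5′ log2 difference of the hexokinase control, and the mean log2 intensity of 11 macrophage and leukocyte markers and 6 adipocyte markers. The diets do not overlap in the first 3 panels, and soy replicate 2 stands apart at 7.83 in the adipocyte panel. The axes do not start at 0.

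After quantile normalization, more probe sets were called higher than lower in testes of soy-fed rats, and the called differences over 2-fold were rises. Of 21729 probe sets tested, 2116 passed an adjusted p of 0.05 in limma (9.74%), 1440 of them higher on soy (6.63%) and 676 lower (3.11%). Of those, 66 rose and 0 fell by more than 2-fold, and log2 differences had a median standard error of 0.092. At an unadjusted p of 0.05, 5447 probe sets passed. The direction of the balance depended on the scale: 68.1% of the calls were higher after quantile normalization, 49.5% on the deposited values (1948 higher and 1986 lower) and 36.7% after centring each array on its median (1673 higher and 2890 lower), a scale on which the median of all probe sets lay at -0.11. No probe set called after quantile normalization changed sign on either other scale. The higher count fell to 764 without casein replicate 3, 778 without soy replicate 1 and 807 without soy replicate 3. The lower count fell to 393, 337 and 242 without casein replicates 1, 2 and 3, and to 283 and 254 without soy replicates 1 and 3.

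Averaging the probe sets of each gene before the test left 513 of 11777 genes higher on soy (4.36%) and 236 lower (2%), 6.36% in all. Of the 3214 genes read by 2 or more tested probe sets, 53 had at least 2 called higher and none lower (1.65%), and 12 had at least 2 called lower and none higher (0.373%). In 708 genes (22%) exactly 1 probe set was called, and in 17 (0.529%), among them Hectd2, Fli1 and Mllt1, probe sets were called in both directions. Of the 53 genes with agreeing rises, 41 were also called on the mean of their probe sets, as were 10 of the 12 with agreeing falls. Every tested probe set of the gene was called in 8 of the 53 and in 9 of the 12. The 112 called probe sets of the 53 genes rose by 0.22 to 1.67 log2 with a median of 0.50, and the 25 of the 12 genes fell by 0.27 to 0.65 with a median fall of 0.35. The count of 53 came to 33, 35 and 28 without casein replicates 1, 2 and 3, and to 27 and 32 without soy replicates 1 and 3, and the count of 12 lay between 2 and 6 without any 1 of the 6 arrays.

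For 25 of the 53 genes, at least 2 probe sets stayed called with each of the 6 arrays left out in turn and on both other scales. This condition did not ask that no other probe set of the gene be called lower there. Among the genes of the 25 described one by one below, such a call was made in Gbf1 on both other scales and in Eif4g1 after median centring. The rest of the 25 were not examined for it. Sf3b1 met the condition on exactly 2 probe sets. On 1 of them, 1382691_at, the casein arrays lay at 5.41 to 5.47 log2. These values were below 5.69 log2, the level under which probe sets were left out on their mean. That probe set thus passed the filter only through its level in the other groups. Of the 112 called probe sets of the 53 genes, 6 had a casein mean below that level and stayed in the counts. On the mean of all their probe sets, Cdk5rap2, Phf14 and RT1-Ba were not called (limma adjusted p = 0.0597, 0.103 and 0.304). The probe sets of RT1-Ba ranged from -0.32 to 0.59 log2. Many of the 25 encode chromatin proteins. Chd4, Smarcc2, Pbrm1 and Atrx are subunits of nucleosome remodelling complexes or remodellers on their own, Kmt2a, Ash1l and Setd5 are or resemble histone methyltransferases, Kdm5b and Kdm2a are histone demethylases, Nipbl loads cohesin onto DNA, and Phf14 and Zmynd11 carry domains that read histone tails. The others were Cdk5rap2, a centrosome protein, Ecpas, a proteasome adaptor, Eif4g1, the scaffold of the translation initiation complex, Gbf1, an exchange factor of the Golgi, Gpbp1, which binds GC-rich promoters, Prrc2c, an RNA-binding protein, Rbbp6, a ubiquitin ligase, Rif1, which sets replication timing, Sf3b1, a core splicing factor, Tlk1, a chromatin assembly kinase, Zbtb20 and Zfp638, zinc finger proteins, and RT1-Ba, a class II antigen-presenting chain. This grouping was made after the genes were known and was not tested. Of the 12 genes with agreeing falls, only Vwa8 met the same condition.

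**Figure D2:**
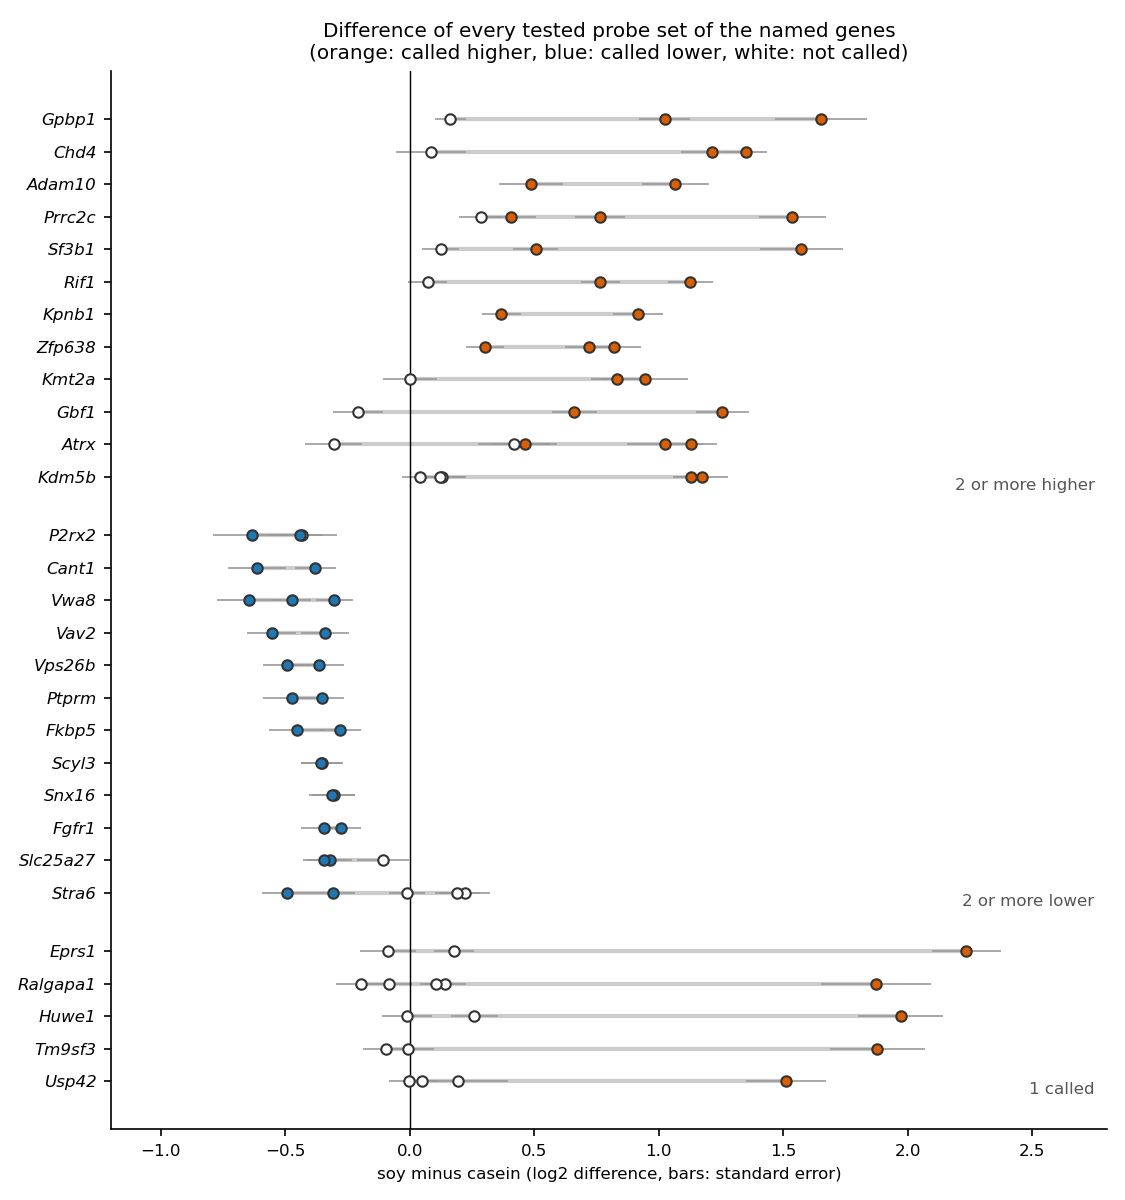
Soy minus casein log2 difference of every tested probe set of the 12 highest-ranked genes with 2 or more probe sets called higher, the 12 with 2 or more called lower, and the 5 genes in which 1 called probe set stood farthest from the others. Orange points were called higher, blue points lower and white points were not called, and bars are standard errors. In Adam10, Kpnb1 and Zfp638 every tested probe set was called higher, in Vwa8 all 3 were called lower, and in Eprs1 1 probe set lay at 2.24 while the other 2 lay at -0.09 and 0.18.

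The promoters of 4 genes with agreeing rises that held in these settings are shown as the sequence from 250 bases before to 50 bases after the transcript start (RefSeq, rat build GRCr8, gene strand, 5′ to 3′), since the question of the series was an estrogen-like response. Chd4 lies on the plus strand at chr4:159584568-159584867, Rif1 on the plus strand at chr3:56963604-56963903, Atrx on the minus strand at chrX:75062831-75063130 and Nipbl on the minus strand at chr2:59293228-59293527. Capitals mark a match to a searched motif.
Chd4: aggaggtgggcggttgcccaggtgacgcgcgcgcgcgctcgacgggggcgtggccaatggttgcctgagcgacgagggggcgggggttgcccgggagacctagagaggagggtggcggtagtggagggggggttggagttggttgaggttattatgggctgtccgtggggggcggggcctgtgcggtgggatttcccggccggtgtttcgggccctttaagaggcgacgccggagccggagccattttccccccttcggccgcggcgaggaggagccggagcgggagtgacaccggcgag
Rif1: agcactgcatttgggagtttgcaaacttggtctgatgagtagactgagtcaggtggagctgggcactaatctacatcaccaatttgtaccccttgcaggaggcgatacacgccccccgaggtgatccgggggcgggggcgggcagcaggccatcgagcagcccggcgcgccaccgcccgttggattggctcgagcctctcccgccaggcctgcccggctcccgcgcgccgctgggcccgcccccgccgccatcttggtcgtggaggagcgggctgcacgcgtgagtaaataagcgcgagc
Atrx: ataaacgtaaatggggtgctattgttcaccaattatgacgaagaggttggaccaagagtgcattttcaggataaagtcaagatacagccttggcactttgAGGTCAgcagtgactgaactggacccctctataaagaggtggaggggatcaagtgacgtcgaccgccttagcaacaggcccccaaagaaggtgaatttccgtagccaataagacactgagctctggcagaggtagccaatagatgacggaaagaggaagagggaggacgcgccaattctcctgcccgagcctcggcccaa
Nipbl: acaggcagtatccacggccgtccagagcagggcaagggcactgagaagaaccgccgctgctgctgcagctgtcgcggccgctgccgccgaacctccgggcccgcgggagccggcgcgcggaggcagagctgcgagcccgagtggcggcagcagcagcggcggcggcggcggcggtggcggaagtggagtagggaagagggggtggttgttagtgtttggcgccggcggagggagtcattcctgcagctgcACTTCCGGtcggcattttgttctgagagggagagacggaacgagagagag

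The capitals in Atrx are a single arm of an estrogen response element (AGGTCA) whose first base lies at position -150 from the start, and those in Nipbl are an ETS site (CCGGAAGT, read on the other strand) that begins at the first transcribed base. Such windows were matched for 40 of the 53 genes with agreeing rises and for 6 of the 12 with agreeing falls, and 5 motifs were searched on both strands. The full estrogen response element, with both arms, was in 0 of the 40 and 0 of the 6 windows, and in 0.0269% of all 33469 rat promoters of the same length. The single arm, which can overlap the full element, was in 3 of the 40 (7.5%; Atrx, Ghrhr and Wwc2) and in 1 of the 6 (Slc25a27), against 16.2% of all promoters. The ETS site was in 3 of the 40 (7.5%) against 3.81% of all promoters, the NRF1 site in 1 of 40 (2.5%; Ttc3) against 0.852%, and the cAMP response element TGACGTCA in 1 of 40 (2.5%; RT1-Ba) against 1.83%. These matches describe letters in the windows and not bound sites.

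Among the chromatin regulators, Chd4, the ATPase of the NuRD complex, was read by 3 probe sets. Probe set 1397200_at lay at 8.92, 8.78 and 8.72 log2 in the casein arrays and at 10.14, 10.26 and 10.08 in the soy arrays. Probe set 1385779_at lay at 7.90, 7.91 and 8.00 on casein and at 9.06, 9.19 and 9.21 on soy. The diets did not overlap on either, and the differences were 1.35 and 1.21 log2 (limma adjusted p = 6.24e-06 and 0.000142). The third probe set, 1372441_at, differed by 0.08 and was not called.

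Kdm5b, which removes methyl groups from lysine 4 of histone H3, was read by 5 probe sets. On 1383082_at the casein arrays lay at 8.49, 8.50 and 8.40 and the soy arrays at 9.61, 9.72 and 9.58, a rise of 1.17 log2, and 1377134_at rose by 1.13 from 7.46, 7.36 and 7.45 to 8.45, 8.66 and 8.55 (limma adjusted p = 5.27e-05 and 6.34e-06). Its other 3 probe sets were brighter, at about 10 to 11 log2, and differed by 0.04 to 0.13, so that the gene was split between readings. Kmt2a, which places that mark, had 2 called probe sets of 3. Its 1393752_at moved from 7.79, 7.60 and 7.56 on casein to 8.49, 8.60 and 8.36 on soy (0.83 log2) and its 1395419_at rose by 0.94, while 1375793_at stood at 0.00. Pbrm1, a subunit of the PBAF remodelling complex, had 3 of 6 called, at 1.67, 0.43 and 0.41. Its leading probe set moved from 7.10, 6.83 and 6.74 to 8.63, 8.70 and 8.36. The weakest of the 3 calls, 1383885_at, was lost without casein replicates 2 or 3 or any 1 soy replicate (adjusted p up to 0.0887) and on both other scales. Atrx, a remodeller linked to histone H3.3 deposition, had 3 of 5 called. Probe set 1385006_at lay at 7.06, 7.10 and 7.09 on casein and at 8.17, 8.41 and 8.05 on soy (1.13 log2), 1393596_at rose by 1.02, and 1386683_at pointed down at -0.31 without a call. The third call, 1393798_at at 0.46, was lost without any 1 array other than soy replicate 3 (adjusted p up to 0.152) and on both other scales.

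Rif1, which acts in replication timing and DNA break repair, moved on 1382859_at from 7.86, 7.91 and 7.77 on casein to 8.93, 9.08 and 8.91 on soy, and on 1395264_at from 10.11, 10.07 and 10.06 to 10.89, 10.86 and 10.78. The rises were 1.13 and 0.77 log2 (limma adjusted p = 2.55e-05 and 0.000155), and the third probe set stood at 0.07. Gpbp1 ranked first of the 53 genes by its mean over all probe sets, at 0.95 log2. Its 1383099_at rose by 1.65 from 8.15, 7.83 and 7.68 to 9.60, 9.82 and 9.18, its 1396128_at by 1.02, and its brightest probe set, near 11 log2, differed by 0.16 without a call.

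Genes of RNA handling and transport followed. Sf3b1, a component of the U2 splicing particle, rose by 1.57 on 1382691_at, from 5.41, 5.47 and 5.47 to 6.94, 7.47 and 6.66, and by 0.51 on the much brighter 1389840_at, from 11.27, 11.22 and 11.20 to 11.73, 11.82 and 11.66 (limma adjusted p = 0.000202 and 0.00492). The casein level of the first lay below 5.69 log2, the level under which probe sets were left out on their mean, as did that of 6 of the 112 probe sets in all. Zfp638, a nuclear protein that binds nucleic acids, was called on all 3 of its probe sets, at 0.82, 0.72 and 0.30. Its 1384795_at lay at 8.46, 8.48 and 8.37 on casein and at 9.30, 9.35 and 9.12 on soy. The weakest call, on 1373764_at, was lost without casein replicates 1 or 3 or soy replicates 1 or 2 (adjusted p up to 0.0944) and on both other scales (0.17 and 0.14, limma adjusted p = 0.154 and 0.226). Kpnb1, the importin that carries cargo into the nucleus, was called on both of its probe sets, at 0.92 (9.32, 9.22 and 9.05 on casein and 10.19, 10.18 and 9.97 on soy) and at 0.37. The second call was lost without casein replicate 3 or soy replicate 1 (adjusted p up to 0.0582) and after median centring. Gbf1, which activates ARF proteins at the Golgi, rose by 1.26 on 1385077_at (8.25, 8.53 and 8.35 to 9.61, 9.70 and 9.59) and by 0.66 on 1390611_at, and the third probe set pointed the other way at -0.21 without a call. Prrc2c rose by 1.54 and 0.77 on 2 probe sets that held in each setting with an array left out, and by 0.41 on another, whose call was lost without any 1 array other than casein replicate 2 (adjusted p up to 0.0798) and on both other scales. Adam10, a membrane protease that sheds cell-surface proteins, rose by 1.07 on 1370955_at and by 0.49 on 1388161_at. The casein arrays of 1370955_at lay at 4.71, 4.79 and 5.01, below the 5.69 log2 of the filter. That probe set thus passed the filter only through its level in the other groups. The call on 1388161_at was lost without each array other than casein replicate 1 (adjusted p up to 0.116).

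**Figure D3:**
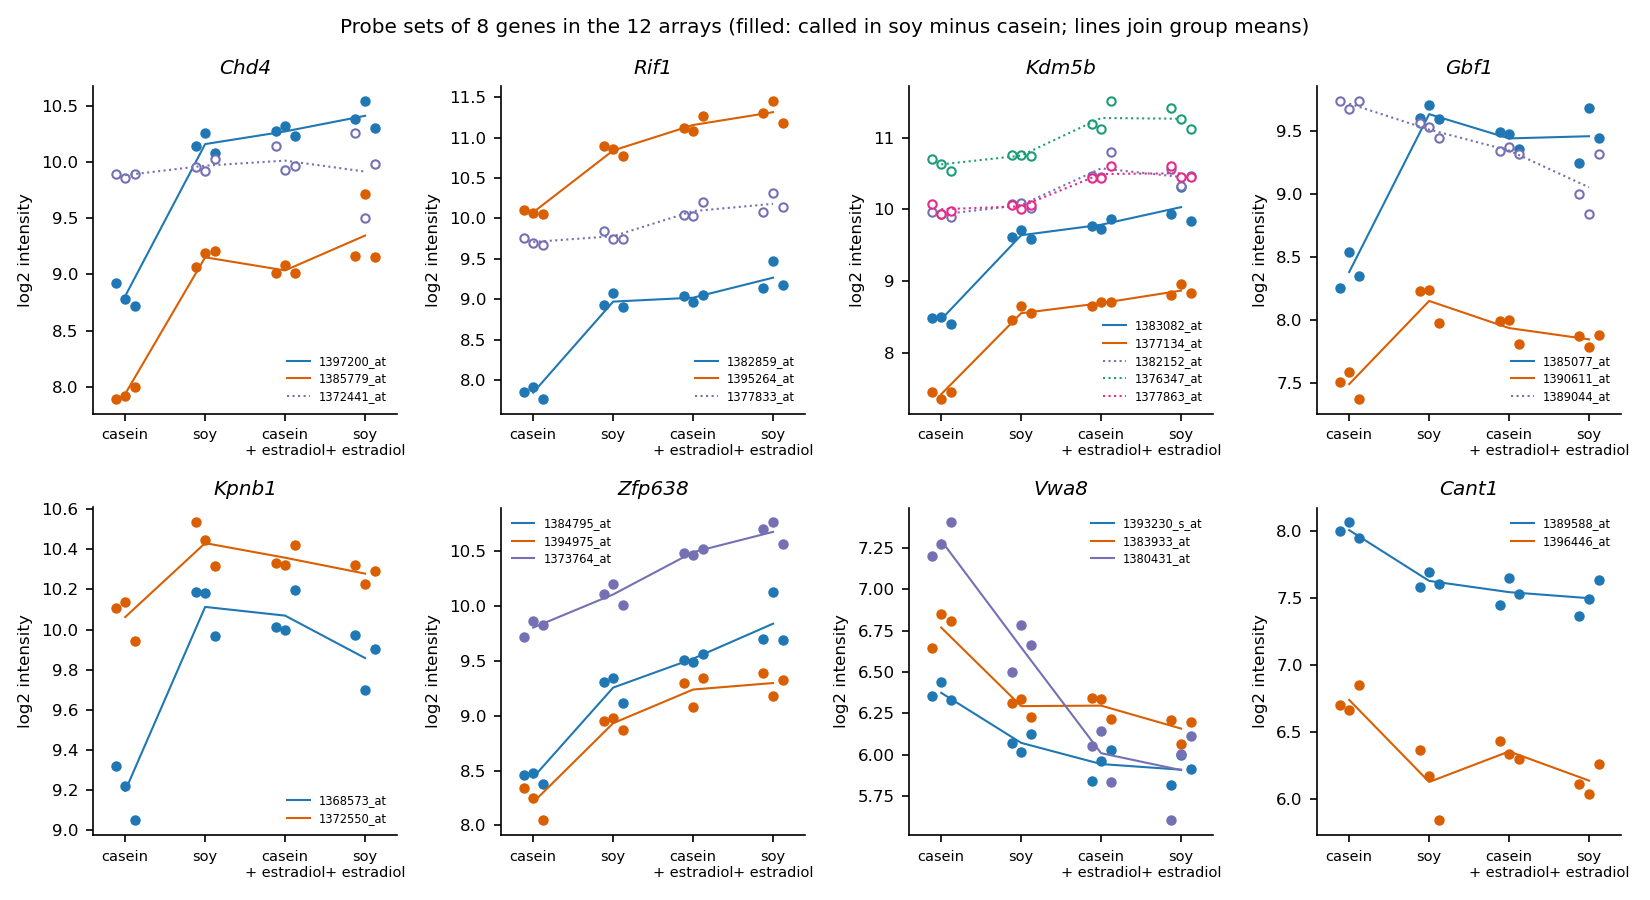
Log2 intensity of every tested probe set of 6 genes with agreeing rises and 2 with agreeing falls in all 12 arrays, with 3 arrays a group. Filled points mark probe sets called between soy and casein without estradiol, open points those not called, and lines join group means. In Chd4 the 2 called probe sets sit at 8.72 to 8.92 and 7.90 to 8.00 on casein, and in the other 3 groups both lie higher, whereas the third probe set lies near 10 in every group. The axes do not start at 0.

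The called probe sets of genes with agreeing falls had a smaller median difference than those with agreeing rises (-0.35 against 0.50 log2). With each array left out in turn, 7 of their 25 probe sets stayed called in every fit, against 68 of the 112 with agreeing rises, whereas 21 of the 25 and 81 of the 112 stayed called on both other scales. Vwa8, a mitochondrial ATPase, was the gene whose 3 probe sets were all called lower. On 1380431_at the casein arrays lay at 7.20, 7.28 and 7.41 and the soy arrays at 6.50, 6.78 and 6.66, on 1383933_at at 6.64, 6.85 and 6.81 against 6.31, 6.34 and 6.23, and on 1393230_s_at at 6.35, 6.44 and 6.33 against 6.07, 6.02 and 6.13. The diets did not overlap on any of the 3, and the differences were -0.65, -0.47 and -0.30 log2 (limma adjusted p = 0.00885, 0.00294 and 0.0248). The call on 1393230_s_at was lost without any 1 array other than soy replicate 3 (adjusted p up to 0.0864) and on the deposited values (-0.21, adjusted p = 0.0744). Cant1, a calcium-activated nucleotidase, differed by -0.61 on 1396446_at (6.70, 6.66 and 6.85 on casein and 6.37, 6.17 and 5.84 on soy) and by -0.38 on 1389588_at. The second call was lost without casein replicate 2 or soy replicate 1 (adjusted p up to 0.0547). P2rx2, an ATP-gated ion channel, was called on 2 of 3 probe sets at -0.44 and -0.63, and the latter call was lost in 5 of the 6 fits that left out an array, casein 1, 2 or 3 or soy 2 or 3 (adjusted p up to 0.0986). The remaining genes with agreeing falls were Vav2, Vps26b, a retromer subunit, Ptprm, a receptor phosphatase, Fkbp5, a co-chaperone of the glucocorticoid receptor, Scyl3, Snx16, Fgfr1, Slc25a27 and Stra6. Their called probe sets differed by -0.55 to -0.27. In each of these 9 genes at least 1 call was lost when some array was left out, with adjusted p up to 0.185 for Stra6, the receptor for retinol-binding protein, 3 of whose 5 probe sets were not called.

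Some genes with 1 tested probe set also moved. Over all tested probe sets, called or not, the soy arrays lay wholly above the casein arrays in 17.9% and wholly below in 19.4%. Of the 8563 genes with 1 tested probe set, the largest rises with no overlap between the diets were those of Rest, a repressor of neuronal genes (0.88 log2), Pdxdc1 (0.87), Nup50, a nuclear pore protein (0.84), Bod1l1 (0.75), Suco (0.71) and Rap2a, a small GTPase (0.66). Nup50 lay at 7.21, 7.29 and 7.25 on casein and at 8.08, 8.18 and 7.99 on soy (limma adjusted p = 0.000502). The call of Rest was lost without casein replicates 2 or 3 or soy replicates 1 or 2 (adjusted p up to 0.0824). A further probe set of Rest was left out by the filter, with a mean of 5.64 log2 against the filter level of 5.69. That probe set lay at 5.53, 5.67 and 5.87 on casein and at 5.76, 5.66 and 5.78 on soy, so that the diets overlapped. The largest falls were those of Hivep1 (-0.81), Casp1, the inflammasome protease (-0.71), Mospd2 (-0.70), Ssh3, a cofilin phosphatase (-0.65), Dusp9, a phosphatase of MAP kinases (-0.63), and Plcl1 (-0.63). Casp1 lay at 6.43, 6.34 and 6.55 on casein and at 5.81, 5.60 and 5.77 on soy (limma adjusted p = 0.00191). The call of Mospd2 was lost without any 1 of the arrays other than soy replicate 2 (adjusted p up to 0.150).

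The largest single readings came from genes whose probe sets did not move together. Eprs1, which charges transfer RNA with glutamate and proline, lay on 1382040_at at 7.15, 7.10 and 7.06 on casein and at 9.29, 9.51 and 9.20 on soy, a difference of 2.24 log2 (limma adjusted p = 6.24e-06), while its other 2 probe sets, near 10 log2, differed by -0.09 and 0.18. The same shape was seen in Huwe1, a ubiquitin ligase (1.97 against -0.01 and 0.26), and Tm9sf3 (1.88 against -0.09 and -0.01). So it was in Ralgapa1, part of a complex that switches Ral GTPases off (1.87 against -0.20 to 0.14 in 4 others). Usp42, a deubiquitinase, also had it (1.51 against 0.00 to 0.19 in 3 others). Over the 520 genes with 1 probe set called higher among several, the other probe sets had a median difference of 0.02. In 308 of the 520 the called probe set was dimmer than the others on the estradiol arrays, with a median gap of -0.33 log2. Of the 188 genes with 1 called lower among several, it was dimmer in 128, with a median gap of -0.63. The other probe sets of these 188 had a median difference of -0.07. In the 45 genes with agreeing rises that also had an uncalled probe set, the called ones were dimmer in 29. Across all tested probe sets sorted by brightness on the estradiol arrays into 5 equal groups, the share called higher was 5.73, 9.94, 9.00, 4.79 and 3.68% from the dimmest to the brightest group, and the share called lower 4.72, 6.14, 3.82, 0.782 and 0.092%. The part of brightness in these differences was not tested, and that of the level of the spiked controls only by the covariate fit given below.

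The same diet difference was then read in the 6 arrays with estradiol. Their values did not enter the soy minus casein difference that chose the genes, but they entered the normalization, the filter and the shared spread behind the calls, and a fit of the 6 diet arrays alone gave 116 agreeing rises and 38 agreeing falls in place of 53 and 12. Under estradiol 0 of the 112 probe sets with agreeing rises and 0 of the 25 with agreeing falls were called in limma, against 1 of all 21729 called higher (0.0046%) and 0 called lower, and 2786 of all passed an unadjusted p of 0.05. Of the 112, 20 passed that unadjusted threshold with the same sign and 4 with the other, and of the 25, 3 and 2. The 112 had a median difference of 0.05 log2 there and 73 of them kept their sign, and the 25 had a median of -0.04 and 15 kept theirs. Chd4 1397200_at averaged 10.27 on casein with estradiol and 10.41 on soy with estradiol, a difference of 0.14, and Kdm5b 1377134_at averaged 8.69 and 8.87. Vwa8 1380431_at averaged 6.01 and 5.91. In Chd4 and Kdm5b the casein group without estradiol thus stood below the other 3 groups, and in Vwa8 it stood above them. The spiked controls were also lowest in the casein group without estradiol, at 10.26, 10.29 and 10.18. They lay at 10.64, 10.43 and 10.62 on casein with estradiol and at 10.81, 10.85 and 10.74 on soy with estradiol. A fit with the control level as a covariate, given below, called 0 probe sets between the diets at a median standard error of 0.255 log2. The part of the control level in these genes was not tested further. The difference between the 2 diet effects passed the limma interaction test for 54 of the 112 and 4 of the 25 probe sets, against 3.41% of all tested, and since that test includes the arrays that chose these probe sets, its counts give no independent support. The comparison of estradiol with none on casein shares the casein arrays with the diet comparison. In it 91 of the 112 probe sets were called the same way and 0 the other way, where 4780 of all 21729 were called higher. Of the 25, 14 were called the same way and 1 the other way, where 4304 of all were called lower. Because of the shared casein arrays, these counts give no independent support either.

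**Figure D4:**
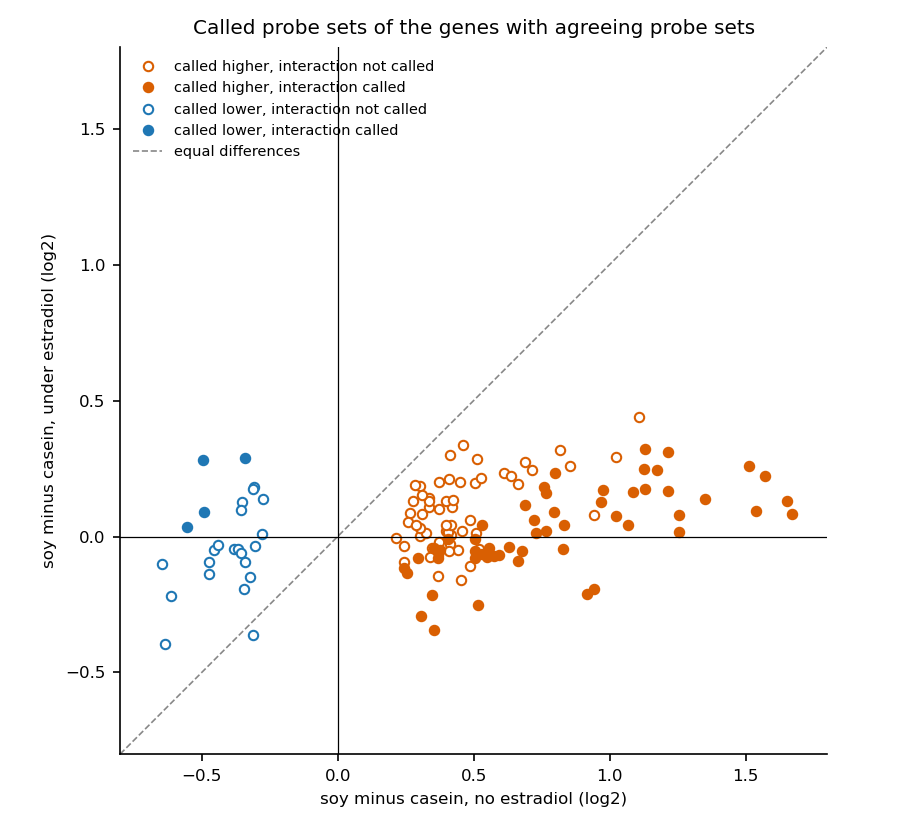
Soy minus casein log2 difference without estradiol (horizontal axis, 3 arrays against 3) and under estradiol (vertical axis, the other 3 against 3) for the 112 called probe sets of the 53 genes with agreeing rises (orange) and the 25 of the 12 with agreeing falls (blue). Filled points passed the interaction test and the dashed line marks equal differences. The medians on the vertical axis are 0.05 and -0.04, against 0.50 and -0.35 on the horizontal axis.

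Gene lists chosen with earlier results of these data known were described by their counts, beside the 6.63% of all tested probe sets called higher and the 3.11% called lower. Chromatin remodeller subunits had 12 of 50 probe sets called higher (24%), in 8 of 20 genes, and 1 called lower, Chd1 (-0.40, lost without any 1 array other than casein replicate 1, adjusted p up to 0.159). Besides Chd4 and Pbrm1 the risers were Smarcc2 on 2 probe sets (0.69 and 0.64 log2), Chd2 (0.90), Chd9 (0.51), Arid1b (0.46), Smarca2 (0.31) and Smarce1 (0.27), of which Chd9 and Smarce1 lost their calls when single arrays were left out (Chd9 without casein replicates 1 or 3 or soy replicate 3, Smarce1 without any 1 array). Smarca2 and Smarce1 were not called on either other scale (0.18 and 0.15 for Smarca2, limma adjusted p = 0.0775 and 0.124). Each of the 8 genes with a rise had at least 1 further probe set without a call. That of Chd9, 1389405_at, pointed down at -0.15 and was called lower after median centring (-0.24, limma adjusted p = 0.0431). The median gene difference of the list was 0.09, against -0.03 over all genes, and it was 0.00 on the deposited values (6 genes higher and 3 lower) and -0.03 after median centring (6 and 4), where all genes had medians of -0.10 and -0.13. Ubiquitin ligases and deubiquitinases had 8 of 43 probe sets called higher (18.6%), each in a different gene of 20, and 0 called lower. They were Huwe1, Usp8 (1.61 log2), Usp7 (1.30), Nedd4 (0.99), Cyld (0.66), Cul5 (0.62), Usp1 (0.50) and Usp34 (0.50), and the call of Usp34 was lost without casein replicates 2 or 3 or soy replicates 1 or 2 (adjusted p up to 0.165) and on both other scales. In each of these 8 genes the other probe sets were not called. Usp8, which acts on endosomes, lay at 7.48, 7.28 and 7.18 on casein and at 8.96, 9.05 and 8.78 on soy. The list's median was 0.19, and 0.07 and 0.05 on the 2 other scales, with 7 genes higher and 1 lower on each.

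Enzymes of RNA synthesis and translation had 5 of 29 probe sets called higher (17.2%) in 3 of 17 genes, namely Eprs1, Eif3a (0.65 log2) and Eif4g1 on 3 of 4 probe sets (0.98, 0.52 and 0.29). Eif4g1 1390340_a_at lay at 9.02, 9.19 and 9.12 on casein and at 10.08, 10.11 and 10.06 on soy. Splicing factors had 6 of 52 called higher (11.5%) in 4 of 22 genes, Sf3b1, Srrm1 on 2 probe sets (0.72 and 0.40), Prpf4b (0.52) and Srrm2 (0.27), and 1 called lower, Srsf6 (-0.26). The weaker call of Srrm1 and that of Srsf6 were lost without any 1 array, that of Srrm2 without casein replicate 3 or soy replicate 1, and the weakest of Eif4g1 without casein replicates 2 or 3 or soy replicates 1 or 3 (adjusted p up to 0.0833, 0.141, 0.0605 and 0.128). The weaker call of Srrm1 and the weakest of Eif4g1 were also lost on both other scales, on which Prpf4b 1376010_at was called lower. The remaining probe set of Eif4g1, 1388322_at, was called lower after median centring (-0.27, limma adjusted p = 0.0473). The medians of these 2 lists were 0.05 and 0.04 and turned negative on both other scales (-0.07 and -0.05 on the deposited values, -0.10 and -0.08 after centring). Cell cycle and DNA replication genes had 2 of 29 probe sets called higher and 2 lower (6.90% each), beside 6.63% and 3.11% of all tested. Ttk, the spindle checkpoint kinase, rose by 1.70 on 1 probe set (8.33, 8.44 and 8.42 on casein and 10.14, 10.20 and 9.96 on soy), Mki67 rose by 0.36, and Mcm4 (-0.41) and Ccna2 (-0.47) fell. These 3 calls were lost without single arrays, that of Mki67 without casein replicate 1 or soy replicates 1 or 2, that of Mcm4 without replicate 1 of either diet and that of Ccna2 without casein replicate 2 or soy replicates 1 or 3 (adjusted p up to 0.0675, 0.0774 and 0.0780), and that of Mki67 also on both other scales. The other probe set of Ttk differed by 0.29 without a call.

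**Figure D5:**
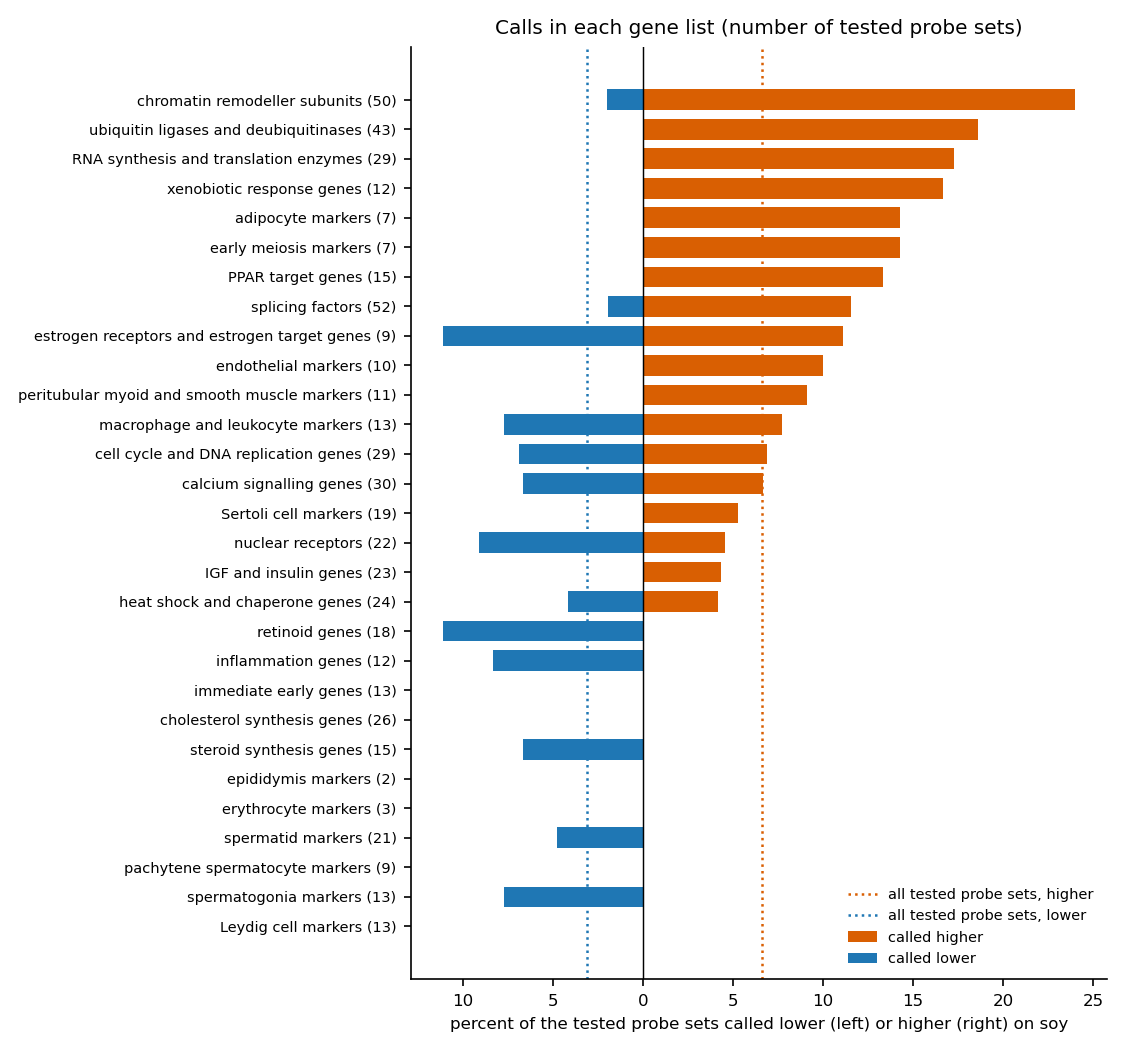
Share of the tested probe sets of each of 29 gene lists called higher (right, orange) or lower (left, blue) on soy, with the number of tested probe sets in parentheses. Dotted lines give the share over all tested probe sets, 6.63% and 3.11%. Chromatin remodeller subunits reach 24% higher, and Leydig cell, pachytene spermatocyte, cholesterol synthesis and immediate early genes have none called either way. Shares of lists with few probe sets rest on 1 or 2 calls.

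Of the 9 tested probe sets of 6 estrogen receptor and target genes, 1 was called higher and 1 lower (11.1% each), beside 6.63% and 3.11% of all tested. Igfbp4, a binding protein of insulin-like growth factors, rose by 0.35 log2 (7.73, 7.75 and 7.72 on casein and 8.02, 8.00 and 8.23 on soy, limma adjusted p = 0.00973). Greb1, a coactivator induced by estrogen in other tissues, fell by 0.37 on 1384529_at (6.26, 6.33 and 6.37 to 5.93, 6.06 and 5.86) while 1378792_at differed by 0.16 without a call. The Greb1 call was lost without any 1 of the arrays other than soy replicate 2 (adjusted p up to 0.122) and on the deposited values. Probe sets of the estrogen receptors Esr1 and Esr2 lay below the level of the filter. Of 11 steroid synthesis genes, Fdx1, the electron carrier of the side-chain cleavage enzyme, fell by 0.39, a call lost without casein replicates 2 or 3 or any 1 soy replicate (adjusted p up to 0.153) and on the deposited values, and its other probe set differed by -0.01. Of the 26 probe sets of 16 cholesterol synthesis genes 0 were called in limma and 2 passed an unadjusted p of 0.05, as did 5447 of all 21729 tested.

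None of the 12 Leydig cell markers was called in limma after quantile normalization, and 2 of their 13 probe sets passed an unadjusted p of 0.05. Over all 21729 tested probe sets, 9.74% were called and 5447 passed that unadjusted threshold. Insl3, the Leydig peptide hormone, lay at 12.39, 12.27 and 12.33 on casein and at 12.26, 12.06 and 12.28 on soy, a difference of -0.13 ± 0.09 (SE) with overlapping arrays. Cyp17a1, the enzyme that commits steroids to androgen, differed by 0.04 ± 0.17, Hsd3b1 by 0.13 ± 0.15, Cyp11a1, the side-chain cleavage enzyme, by -0.15 ± 0.17, Hsd17b3, which makes testosterone, by -0.10 ± 0.09, and Lhcgr, the luteinising hormone receptor, by -0.04 ± 0.11. Star, which carries cholesterol into mitochondria, differed by -0.27 ± 0.10 on 1368406_at and by 0.11 ± 0.17 on 1387174_a_at. The former was called lower on both other scales. Nr5a1, the transcription factor of steroidogenic genes, differed by -0.17 and was likewise called lower on both (-0.26 and -0.29, limma adjusted p = 0.0196 and 0.0126). The mean level over the genes of the Leydig list was 9.72 to 9.80 on soy against 9.82 to 9.89 on casein. In a whole testis, fewer cells of a type and less RNA per cell cannot be told apart.

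Other cell types showed single calls. The 14 tested Sertoli genes averaged 8.251 to 8.320 on soy and 8.324 to 8.380 on casein. Their median difference was -0.07, against -0.03 over all genes, and 2 of the 14 lay above 0. Among 14 tested Sertoli genes, Amh, the anti-Müllerian hormone (-0.24 ± 0.11), and the inhibin subunit Inhbb (-0.19 ± 0.09) were not called, Inhbb being called lower on both other scales, and Kitlg, the ligand of the germ cell receptor Kit, was called higher on 1370770_s_at (0.36), a call lost without casein replicates 1 or 3 or soy replicates 1 or 3 (adjusted p up to 0.143). The other probe set of Kitlg, 1388856_at, differed by -0.19, and the mean of both by 0.08 (limma adjusted p = 0.692). Early meiosis markers averaged 10.83 to 10.89 on soy and 10.70 to 10.78 on casein. Smc1b, a cohesin of meiosis, was the 1 of 7 called, at 0.38 (10.75, 10.79 and 10.83 to 11.19, 11.19 and 11.13), and its adjusted p reached 0.05005 without soy replicate 1 and 0.0516 after median centring. Of the 9 probe sets of 7 pachytene markers 0 were called in limma and 0 passed an unadjusted p of 0.05. Of all 21729 tested probe sets, 9.74% were called and 5447 passed the unadjusted threshold. Of 15 spermatid markers only Crem was called, on 1 of its probe sets (-0.37), as was Ret (-0.51) of 8 spermatogonial genes. Both calls were lost without several single arrays (Crem without casein replicates 1 or 2 or soy replicate 3, Ret without casein replicates 2 or 3 or soy replicates 1 or 3), that of Crem also on the deposited values, and the other probe set of Ret differed by -0.06. Mylk, the kinase of smooth muscle myosin, rose by 0.95 on 1384818_at (5.56, 5.71 and 5.65 to 6.55, 6.82 and 6.40) without a second call among 9 peritubular genes. The casein mean of that probe set, 5.64, lay below the 5.69 log2 of the filter, and the brighter 1371541_at differed by -0.05.

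Mean levels of macrophage and leukocyte markers differed between the diets, and that of fat cell markers stood apart in 1 array. The 11 tested macrophage and leukocyte genes averaged 7.58 to 7.70 on soy and 7.74 to 7.96 on casein. Their median gene difference was -0.28, against -0.03 over all genes. Of their 13 probe sets, 1 was called higher and 1 lower (7.69% each), beside 6.63% and 3.11% of all tested. The soy arrays lay wholly below the casein arrays in 19.4% of all tested probe sets. The signalling adaptor Tyrobp fell by 0.42 and 1 of 2 probe sets of Aif1 rose by 0.27 (0.05 on the other), and both calls were lost without casein replicates 1 or 3 or soy replicates 1 or 3, and that of Aif1 also without casein replicate 2 (adjusted p up to 0.128 and 0.116). The markers Cd163, Ptprc and Itgam lay below the level of the filter. The 6 tested adipocyte genes averaged 7.83 in soy replicate 2, against 6.58 to 6.94 in the other 5 arrays. Without that array the agreeing rises numbered 36 and the called rises 1278. The hormone-sensitive lipase Lipe, on that list, rose by 0.44 at 8.86, 8.76 and 8.98 on soy against 8.39, 8.50 and 8.40 on casein, while its other probe set differed by 0.18 without a call and the mean of both was not called (limma adjusted p = 0.0844). The part of these cell types in the differences between the diets was not tested further.

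Metabolic and regulatory genes gave a few single calls. Beside the counts below, 6.63% of all tested probe sets were called higher and 3.11% lower. Cpt1a, which admits fatty acids to mitochondria, rose by 0.58 log2 on 1 of 2 probe sets (6.79, 6.72 and 6.94 to 7.34, 7.38 and 7.46), and the lipid receptor Ppard by 0.44. The call of Ppard was lost without casein replicate 1 or soy replicates 1 or 3 (adjusted p up to 0.0631). Tiparp, induced through the aryl hydrocarbon receptor, rose by 0.42 on 1385407_at, a call lost after median centring (0.25, limma adjusted p = 0.0511), and its 1374446_at differed by 0.005. Cyp1a2 rose by 0.44 from levels close to the filter (lost without casein replicate 1, adjusted p 0.0532). Among 17 tested nuclear receptors, Nr2f2, a marker of steroidogenic precursor cells, rose by 0.58 on 1370063_at (8.75, 8.47 and 8.57 to 9.11, 9.16 and 9.28), while its 1389554_at differed by -0.04 and the mean of both was not called (limma adjusted p = 0.0515). The glucocorticoid receptor Nr3c1 (-0.32) and the oxysterol receptor Nr1h3 (-0.44) fell, with calls that did not hold without casein replicate 3 or soy replicate 3, or for Nr3c1 also without replicate 2 of either diet (adjusted p up to 0.148 and 0.0702). In calcium signalling, Orai2, a store-operated channel subunit, fell by 0.69 on 1377955_at (6.95, 7.10 and 6.85 to 6.20, 6.12 and 6.52). Its 1379159_at pointed up at 0.19 without a call, and the mean of both was not called (limma adjusted p = 0.119). The calls of Camk2d (-0.22), Itpr2 (0.33) and Atp2a3 (0.38) were lost without replicates 1 or 3 of either diet, among others (adjusted p up to 0.0953, 0.135 and 0.0680). Heat shock genes gave 1 rise, Hspa9 on 1 of 3 probe sets (0.67), and 1 fall, Hspa1a (-0.36). The former was lost without casein replicate 2 or soy replicates 1 or 2, and the latter without any 1 array other than soy replicate 2 (adjusted p up to 0.0575 and 0.100045). Besides those named, endothelial markers had 1 call of 10 probe sets, Egfl7 (0.23, lost without any 1 array, adjusted p up to 0.101), and Casp1 was the 1 call of 12 for inflammation genes, Igfbp4 the 1 of 23 for IGF and insulin genes, and Stra6 the 1 gene called of 12 for retinoid genes. In limma 0 of 13 probe sets of immediate early genes, 0 of 3 of erythrocyte markers and 0 of 2 of epididymis markers were called, and 3, 0 and 0 passed an unadjusted p of 0.05. Of all 21729 tested probe sets, 5447 passed that threshold. The 2 epididymis genes averaged 8.36 to 8.44 on soy and 8.05 to 8.35 on casein.

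When the level of the spiked hybridisation controls entered the fit as a covariate over all 12 arrays, 0 probe sets were called between soy and casein in limma, and 1084 passed an unadjusted p of 0.05. The median standard error was then 0.255 log2, against 0.092 without the covariate. Of the 2116 probe sets called without it, 63 had the opposite sign with it. Of the genes read by the mean of their probe sets, 0 were called and 491 passed an unadjusted p of 0.05.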

How the data were processed

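Testis RNA of 12 samples, 3 per group, was read on Affymetrix rat arrays. The deposited table held log2 probe set intensities, and per the submitters' processing notes the authors used GCOS, whose version, like the background correction and summarisation, was not given in the sources used here. This log2 scale was read from the values. No depth exists for arrays, so the number of arrays limits the precision.

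The 57 control probe sets were set aside and examined on their own. The other 31042 were quantile normalized over 12 arrays, the 30% with the lowest means (below 5.69 log2) were left out, and 4 group means were fitted in limma 3.58.1 under R 4.3.3 with eBayes and a mean-variance trend (8 residual degrees of freedom). Contrasts were two-sided and adjusted by Benjamini-Hochberg over 21729 probe sets or 11777 genes, called at 0.05. Of the probe sets, 20832 carry 1 gene symbol in the platform annotation, 436 several and 9831 none, and genes were named from the first only. Of these, 20764 matched the rat gene table by Entrez ID and 0 symbols changed. The script was tested on simulated data.

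The members and gene lists were chosen with earlier results of these data known. Named genes were the 12 largest rises and falls among genes with 2 or more probe sets called one way and none the other, ranked by the mean over all their probe sets, the 6 largest each way among genes with 1 probe set and no overlap, the 5 with the widest spread around 1 called probe set, called members of 29 lists, and 13 fixed genes, of which 1 is not reported here. Alternatives were other scalings, filters, covariates, weights, probe set summaries and each of the 6 arrays left out.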

Additional observations from a re-analysis of the deposited data

Results flagged for a closer look

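Named probe sets called between soy and casein without estradiol are listed here when their diet difference also differed between the 2 estradiol states (limma interaction, adjusted over all probe sets). Values are the log2 diet difference under estradiol minus that without it. The interaction includes the arrays that chose these probe sets, and 3.41% of all tested probe sets passed it.

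Among genes with agreeing rises, the interaction was -1.21 and -0.90 for the 2 called probe sets of Chd4, -1.52 and -0.95 for Gpbp1, -1.44 and -0.74 for Prrc2c, -1.35 and -0.56 for Sf3b1, -1.24 and -0.75 for Gbf1, and -1.13 and -0.45 for Kpnb1. It was -0.93 and -0.95 for Kdm5b and -0.88 and -0.61 for Rif1. For Adam10 it was -1.03, for Atrx -0.81, for Kmt2a -0.79 and for Zfp638 -0.66, on 1 probe set each.

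Among genes in which 1 probe set of several was called, it was -2.37 for Ralgapa1, -1.95 for Eprs1, -1.77 for Huwe1, -1.68 for Tm9sf3 and -1.46 for Usp42. Among genes read by 1 probe set it was -0.95 for Nup50, -0.82 for Rap2a, -0.63 for Pdxdc1, 0.83 for Plcl1, 0.82 for Ssh3, 0.72 for Dusp9 and 0.70 for Casp1. Among genes with agreeing falls it was 0.63 and 0.59 for Vav2, 0.77 for Stra6 and 0.58 for Vps26b, and it was 0.77 for the estrogen target Greb1.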

How the results depend on the processing

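Counts moved with the scale, the filter, the samples fitted, the weights and the covariate. On the deposited values 1986 probe sets and 1097 genes were called lower and 66 genes had agreeing falls, and after median centring these were 2890, 1752 and 126. Without the lowest 50% of probe sets, 934 were called higher and 309 lower, with 2 agreeing falls and 103 genes lower. With only the 6 soy and casein arrays, 1502 probe sets were lower, 802 genes higher and 744 lower, agreeing rises numbered 116, agreeing falls 38 and risers among splicing factors 8, and no value under estradiol or for the interaction could be had. Array quality weights gave 2851 probe sets higher, 2322 lower, 180 agreeing rises, 75 agreeing falls, 1357 genes higher and 1333 lower, 7 splicing and 13 ubiquitin risers, 1 of the agreeing probe sets called the same way under estradiol and 111 interactions. With the hybridisation control level as a covariate all counts of calls between the diets were 0, those of the chromatin, splicing and ubiquitin lists included, and 4 interactions were called. With 1 array left out, ranges were 764 to 1278 probe sets higher, 242 to 601 lower, 27 to 36 agreeing rises, 2 to 6 agreeing falls, 166 to 417 genes higher, 38 to 184 lower and 21 to 46 interactions, against 58.

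Same-numbered casein and soy samples shared no deviation (r = 0.02, -0.13 and 0.13), so the numbers were not taken to pair them. With the replicate block, agreeing falls numbered 7, genes lower on their mean 147, agreeing rises 46, probe sets higher 1248 and lower 556.

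Of values for single probe sets under an alternative, 1561 kept direction and side of the threshold, 414 were no longer called, 8 became called and 21 changed sign. Under the control covariate these were Chd9 (-0.024), Cyp17a1 (-0.59), Greb1 (-0.20 on 1378792_at and 0.23 on 1384529_at), Hsd17b3 (0.0032), Hsd3b1 (-0.33), Lhcgr (0.050), Prrc2c 1378155_at (-0.095), Slc25a27 1390401_at (0.11) and Star (-0.013 on 1387174_a_at and 0.056 on 1368406_at). On the deposited and the median-centred values these were Cyp17a1 (-0.022 and -0.050) and Star 1387174_a_at (-0.037 and -0.065). With 1 array left out, the value ranged from -0.071 (without soy replicate 2) to 0.14 for Cyp17a1, from -0.036 (without soy replicate 2) to 0.21 for Hsd3b1, from -0.024 (without casein replicate 1) to 0.19 for Star 1387174_a_at and from -0.14 to 0.069 for Lhcgr, which was above 0 without casein replicate 1 and without soy replicate 3. With array weights Lhcgr was at 0.071. The cause was not tested.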
